A study of Mus musculus with 32 samples.

Results

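The 10 genes described here belong to Wnt signalling and were chosen by name: the ligands Wnt2 and Wnt5a, the secreted antagonists Sfrp1, Sfrp2, Frzb, Wif1, Dkk2 and Dkk3, the feedback gene Axin2, and Daam2. They are 10 of the 55414 gene IDs in a count table of poly(A) RNA from cultured mouse cardiac fibroblasts. All 10 had enough counts to be tested. They were chosen with earlier results of these data known, so their shares and medians are not those of an unselected set. The cells came from C57BL/6J mice with a floxed Pkm2 allele (Pkm2fl/fl), which every group carried, and were transduced with iCre, a recombinase, or with LacZ as its control. Each vector was followed by TGFb (transforming growth factor beta, 10 ng/ml), IL-1b (interleukin-1 beta, 15 ng/ml), bFGF (basic fibroblast growth factor, 20 ng/ml) or no stimulus (SS, which the labels do not spell out) for 24 h. The 8 groups were thus iCre with TGFb, IL-1b, bFGF or SS and LacZ with TGFb, IL-1b, bFGF or SS, with 4 libraries each and 32 in all. The treatment was given in serum-starved cells at passage 1, after growth in medium with serum and 20 ng/ml human bFGF, so the SS cells had met bFGF before. The titles set the groups. The treatment tags of all 16 LacZ libraries name another treatment than the titles do, and the protocol text speaks of TAK1fl/fl mice and a TNFa arm.

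Wnt proteins are secreted ligands that bind Frizzled receptors with co-receptors of the Lrp family. In the canonical branch this stops the destruction of beta-catenin, which then acts with TCF/LEF factors on target genes such as Axin2, while other branches act on the cytoskeleton and on calcium. Secreted Frizzled-related proteins and Wif1 bind Wnt ligands outside the cell, Dickkopf proteins act at the Lrp co-receptors, and Daam formins link Dishevelled to actin. In the heart, Wnt signalling is low in the resting adult organ and has been linked to fibroblast activation after injury.

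Wnt2, Sfrp2, Axin2 and Daam2 were the 4 genes whose transcripts differed from SS under TGFb in both vectors. Their promoters are given here so that the windows can be compared. Each runs from 250 bases before the RefSeq start to 50 after it, 5′ to 3′ on the gene's strand, in build GRCm38.p6. Capitals mark a match to a searched motif. The windows are chr6:18030396-18030695 (Wnt2, minus strand), chr3:83766071-83766370 (Sfrp2, plus strand), chr11:108920099-108920398 (Axin2, plus strand) and chr17:49564288-49564587 (Daam2, minus strand).

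Wnt2: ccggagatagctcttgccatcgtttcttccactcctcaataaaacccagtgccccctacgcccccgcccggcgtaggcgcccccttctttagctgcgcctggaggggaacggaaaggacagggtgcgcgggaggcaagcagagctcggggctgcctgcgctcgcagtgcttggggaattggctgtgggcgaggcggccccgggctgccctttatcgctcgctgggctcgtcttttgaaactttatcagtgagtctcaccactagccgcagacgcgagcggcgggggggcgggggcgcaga

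Sfrp2: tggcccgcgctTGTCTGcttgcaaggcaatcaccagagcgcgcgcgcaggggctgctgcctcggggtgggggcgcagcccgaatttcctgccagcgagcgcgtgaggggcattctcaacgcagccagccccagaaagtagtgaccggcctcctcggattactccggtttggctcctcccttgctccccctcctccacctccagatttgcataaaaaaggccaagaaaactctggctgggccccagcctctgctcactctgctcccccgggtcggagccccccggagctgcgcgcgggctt

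Axin2: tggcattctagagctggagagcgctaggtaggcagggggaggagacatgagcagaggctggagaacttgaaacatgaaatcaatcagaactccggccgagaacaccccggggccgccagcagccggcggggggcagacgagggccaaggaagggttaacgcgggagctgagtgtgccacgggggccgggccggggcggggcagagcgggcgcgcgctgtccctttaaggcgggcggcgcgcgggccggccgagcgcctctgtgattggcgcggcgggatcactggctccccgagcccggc

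Daam2: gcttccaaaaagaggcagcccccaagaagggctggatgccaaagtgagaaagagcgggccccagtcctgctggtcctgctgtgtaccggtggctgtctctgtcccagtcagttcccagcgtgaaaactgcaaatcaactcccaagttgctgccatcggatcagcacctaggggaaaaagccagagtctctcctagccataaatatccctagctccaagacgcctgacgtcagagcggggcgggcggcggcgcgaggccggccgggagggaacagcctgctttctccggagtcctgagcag

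The motifs were CTTTGAT for TCF/LEF, TGANTCA for AP-1 and CAGACA for Smad, read on both strands. Of the 7 genes with a promoter in the RefSeq table (also Frzb, Wif1 and Dkk2), 1 held a match, the Smad letters on the reverse strand of Sfrp2 239 bases upstream of the start. Among all 32851 promoters in the table, 3.73% held the TCF/LEF letters, 7.81% the AP-1 letters and 21% the Smad letters. These 4 windows were rich in G and C, at 65.7% for Wnt2, 66.0% for Sfrp2, 70.0% for Axin2 and 60.3% for Daam2, against a median of 52.7% over all promoters. They held 27, 22, 31 and 15 CpG pairs in that order, against a median of 7. Of Daam2, 2 promoters were listed and 1 is shown. The RefSeq start of Wnt2 lies 140 bases from the GENCODE start.

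Total counts ran from 20736203 to 34995038 per library. Fibroblast markers (7 of 7 tested, such as Col1a1 and Dcn) summed to 10050 CPM or more in every library (CPM, counts relative to the TMM-scaled library size). Pkm, the floxed gene, averaged 1107 ± 181 CPM in iCre and 1538 ± 160 CPM in LacZ cells under TGFb, and 533 ± 177 CPM in iCre and 786 ± 247 CPM in LacZ cells in SS (SD, n = 4 each); gene counts do not separate its isoforms. Nos2, Spry4 and Pmepa1, which IL-1b, bFGF and TGFb are known to raise, were each highest in both groups titled with that stimulus. Nothing in the labels says whether the 4 libraries of a group came from separate mice or cultures, so the p-values measure the spread between these libraries, which may be technical. Replicate numbers 1 to 4 recur in every group and libraries of 1 number varied together, so results on the 10 genes that change when the number enters the model as a block are given both ways. In bulk RNA, fewer cells that express a gene and less RNA per cell cannot be told apart.

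On a scale also divided by exon length in kilobases (RPKM), the secreted antagonists Sfrp1, Frzb and Dkk3 were by far the most abundant of the 10. Sfrp1 had a median level of 165.7 RPKM over the 32 libraries (30.5 to 296), Frzb 120.1 RPKM (35.8 to 236) and Dkk3 64.6 RPKM (23.1 to 198). The ranges of these 3 genes overlapped. Wnt5a followed at 5.94 RPKM, Dkk2 at 5.03 RPKM and Sfrp2 at 3.65 RPKM, again with ranges that overlapped. Wnt2 had a median of 1.00 RPKM, Axin2 0.562 RPKM, Daam2 0.287 RPKM and Wif1 0.147 RPKM. Wif1 was at 2 to 37 counts per library, so small differences in it were not detectable at this depth.

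**Figure D1:**
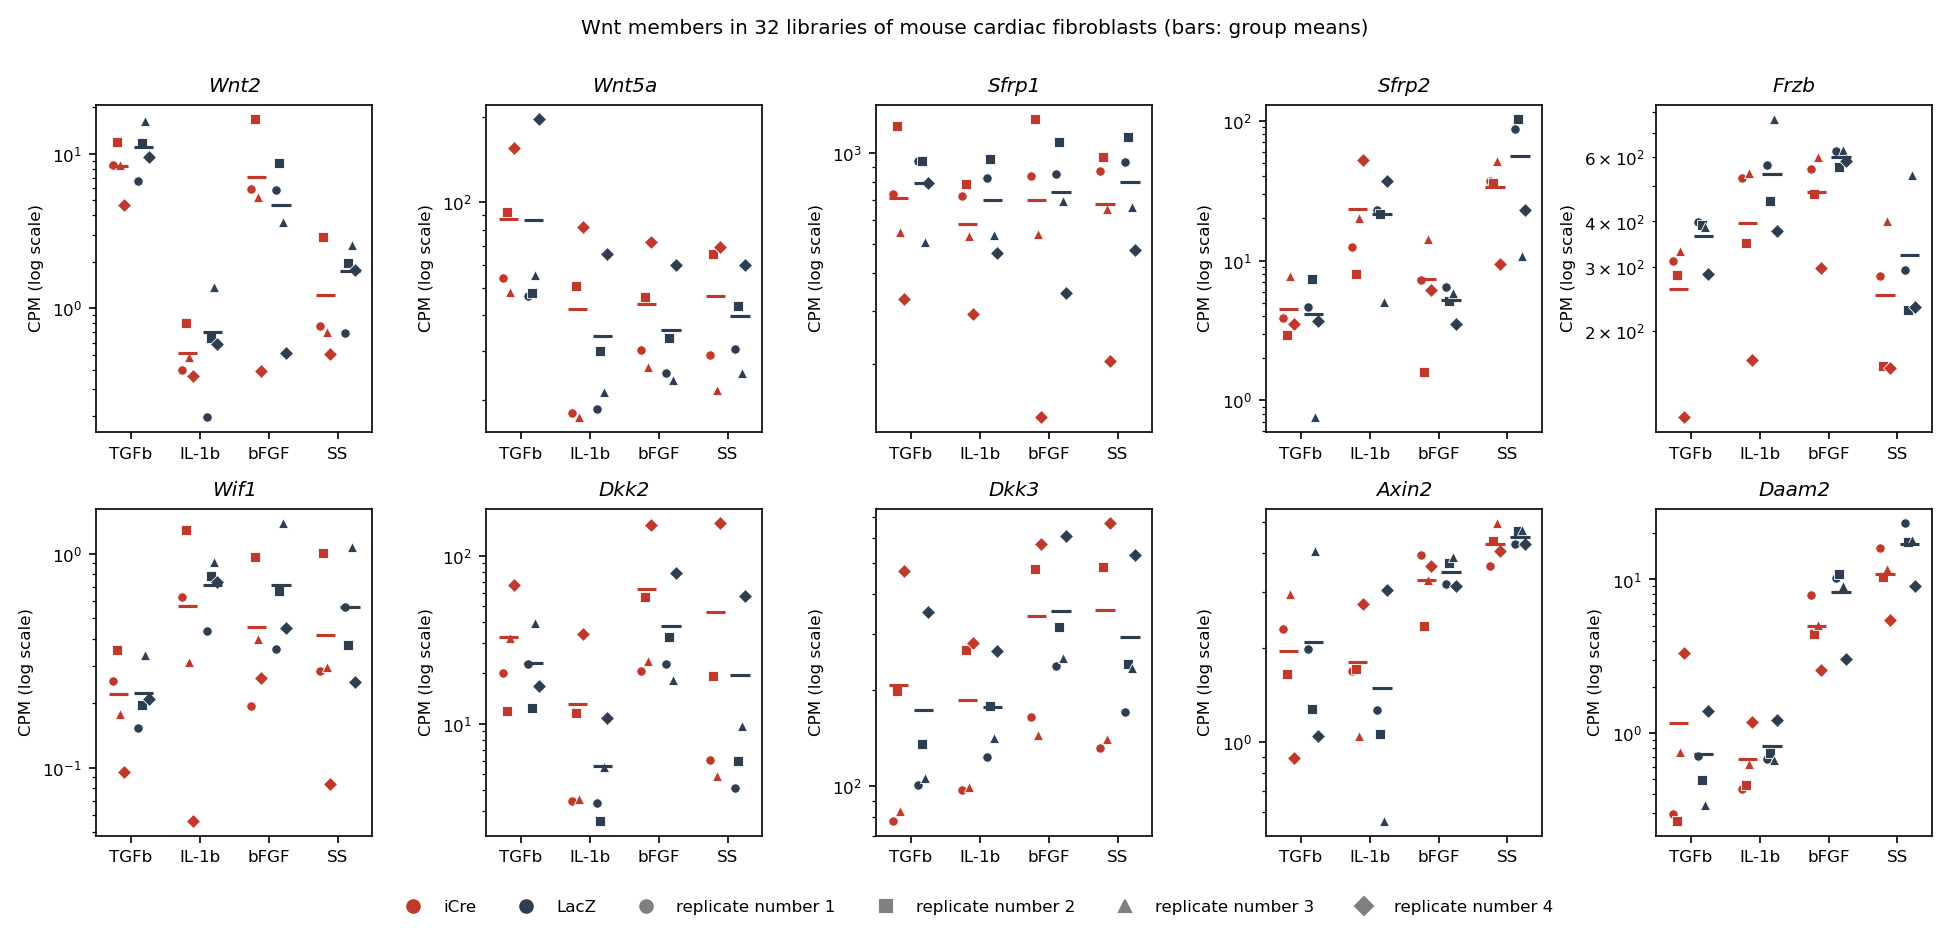
Level of each gene in every library, in CPM on a log axis, by condition (TGFb, IL-1b, bFGF, SS) and vector (iCre red, LacZ dark blue), with the replicate number as the marker shape and the group mean as a bar. Daam2 and Axin2 are below their SS libraries under TGFb and IL-1b, Wnt2 is above them under TGFb, and the number 4 library is the highest for Wnt5a and Dkk3 in all 8 groups.

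TGFb changed 4 of the 10 genes in each vector, 1 higher (Wnt2) and 3 lower (Sfrp2, Axin2, Daam2), where 38.3% of the 16760 genes tested passed in iCre and 46.3% in LacZ cells (edgeR, adjusted p under 0.05). The members' share was thus close to that of all genes in these 2 comparisons. IL-1b changed 2 in each vector, Axin2 and Daam2, both lower, where 15.7% of genes passed in iCre and 19.2% in LacZ cells. The members' share under IL-1b was thus also close to that of all genes. With bFGF, 0 passed in iCre cells, where 2.2% of genes did, 3 were under an unadjusted p of 0.05 and DESeq2 called 2. In LacZ cells bFGF changed 1, Sfrp2, which was lower, where 2.56% of genes passed. With the number as a block the counts of members were 6 and 6 under TGFb (51.6% and 58.4% of genes, iCre and LacZ), 4 and 4 under IL-1b (29% and 32.3%), and 2 and 2 under bFGF (11.4% and 12.2%). By direction, 20.2% of genes were called higher and 18.1% lower under TGFb in iCre cells, and 23.4% and 22.9% in LacZ cells. Under IL-1b the shares were 8.88% higher and 6.84% lower in iCre cells and 11.1% and 8.13% in LacZ cells. Under bFGF they were 1.44% and 0.752% in iCre cells and 1.64% and 0.919% in LacZ cells. Of the 10 genes, 4 had TGFb libraries that did not overlap SS in each vector (30.3% of genes in iCre and 41.4% in LacZ cells), 2 had IL-1b libraries that did not in each (19.1% and 24.2%), and 0 in iCre and 3 in LacZ cells had such bFGF libraries (7.74% and 10%). The median log2 fold change of the 10 genes was -0.64 under TGFb in iCre and -0.38 in LacZ cells, against -0.05 and -0.06 over all genes tested. Under IL-1b it was -0.73 in iCre and -1.02 in LacZ cells, against -0.02 and -0.02. Under bFGF it was -0.01 in iCre and 0.08 in LacZ cells, against -0.004 and -0.01. The 3 stimuli were each compared with the same SS libraries of their vector, so these comparisons share controls.

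**Figure D2:**
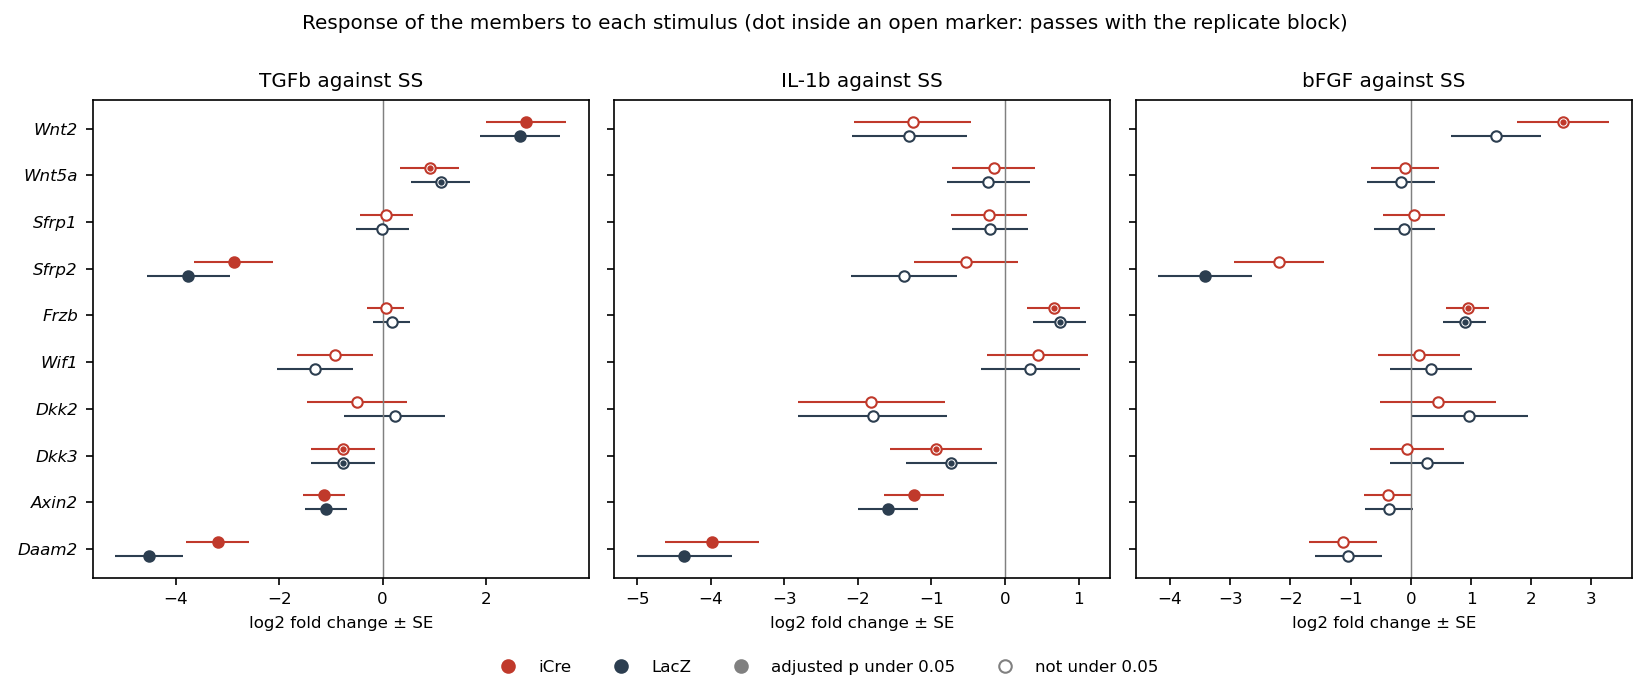
Log2 fold change of each gene against SS with its standard error, for TGFb, IL-1b and bFGF, in iCre (red) and LacZ (dark blue) cells. Filled markers passed an adjusted p of 0.05 in edgeR and a dot inside an open marker passed only with the replicate block; Daam2 has the lowest values under TGFb and IL-1b, at -3.20 to -4.52.

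Wnt2, a canonical ligand, rose under TGFb. In iCre TGFb cells it had 8.51, 12.0, 8.40 and 4.65 CPM in numbers 1 to 4, against 0.769, 2.91, 0.703 and 0.503 CPM in iCre SS cells. In LacZ TGFb cells it had 6.66, 11.7, 16.2 and 9.46 CPM, against 0.695, 1.97, 2.55 and 1.76 CPM in LacZ SS cells. Every TGFb library was above every SS library of its vector. The log2 fold change was 2.78 ± 0.78 (SE) in iCre cells (edgeR adjusted p = 0.00593) and 2.66 ± 0.77 in LacZ cells (edgeR adjusted p = 0.00619), higher in 4 of 4 numbers in both. Number 2 was the highest of the iCre SS libraries, and without it the fold change in iCre cells was 3.64 (edgeR adjusted p = 0.00242; 9.5e-05 to 0.0233 over the alternatives).

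Under bFGF, Wnt2 split by number. It had 5.87, 16.7 and 5.27 CPM in iCre bFGF cells of numbers 1 to 3 but 0.393 CPM in number 4, and 5.80, 8.71 and 3.63 CPM in LacZ bFGF cells of numbers 1 to 3 but 0.512 CPM in number 4. Numbers 1 to 3 were above every SS library of their vector and number 4 was below every SS library of its own vector. The log2 fold change in iCre cells was 2.53 ± 0.77 and did not pass (edgeR adjusted p = 0.0795). It passed with the replicate block, at 2.37 ± 0.61 (edgeR adjusted p = 0.014), without the number 4 libraries, at 2.67 ± 0.64 (edgeR adjusted p = 0.00987), and without the iCre bFGF library of number 4 alone, at 2.93 (edgeR adjusted p = 0.0138), while the adjusted p ran from 0.00103 to 0.371 over all alternatives. In LacZ cells it was 1.41 ± 0.75 (edgeR adjusted p = 0.353; 0.0166 to 0.704 over the alternatives). With IL-1b, Wnt2 was at 0.366 to 0.798 CPM in iCre and 0.198 to 1.37 CPM in LacZ cells, overlapping SS in both, and did not pass the test.

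Wnt5a, a ligand best known for branches that do not use beta-catenin, was high in number 4 throughout. In iCre TGFb cells it had 54.2, 92.3, 48.3 and 156 CPM, against 28.9, 65.9, 21.9 and 69.7 CPM in iCre SS cells. In LacZ TGFb cells it had 46.8, 48.0, 55.3 and 196 CPM, against 30.5, 43.0, 25.0 and 60.2 CPM in LacZ SS cells. The groups overlapped, yet within each number the TGFb library was the higher, in 4 of 4 numbers in both vectors. Over the groups the log2 fold change was 0.91 ± 0.57 in iCre cells (edgeR adjusted p = 0.212) and 1.13 ± 0.57 in LacZ cells (edgeR adjusted p = 0.108), so neither passed. With the replicate block they were 0.89 ± 0.21 (edgeR adjusted p = 0.00102) and 0.97 ± 0.21 (edgeR adjusted p = 0.000401), and over all alternatives the adjusted p ran up to 0.548 and 0.646. Under IL-1b and bFGF its levels stayed within 17.5 to 81.7 CPM in iCre and 18.7 to 65.5 CPM in LacZ cells, and neither edgeR, with or without the block, nor DESeq2 called it.

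Sfrp2, a secreted Frizzled-related protein, fell under TGFb. In iCre TGFb cells it had 3.89, 2.93, 7.76 and 3.54 CPM, against 37.3, 35.9, 51.9 and 9.47 CPM in iCre SS cells. In LacZ TGFb cells it had 4.63, 7.43, 0.758 and 3.70 CPM, against 87.6, 102, 10.8 and 23.2 CPM in LacZ SS cells. No TGFb library reached the lowest SS library of its vector, although SS itself spanned 9.47 to 51.9 CPM in iCre and 10.8 to 102 CPM in LacZ cells. In the fit this was a log2 fold change of -2.89 ± 0.77 in iCre cells (edgeR adjusted p = 0.00401) and -3.76 ± 0.80 in LacZ cells (edgeR adjusted p = 0.000385).

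With bFGF, Sfrp2 had 7.27, 1.58, 14.4 and 6.16 CPM in iCre cells and 6.48, 5.12, 5.87 and 3.52 CPM in LacZ cells. The LacZ bFGF libraries were all below LacZ SS, and the iCre bFGF libraries overlapped iCre SS. In LacZ cells the log2 fold change was -3.41 ± 0.78 and passed (edgeR adjusted p = 0.0206). That call was lost without LacZ bFGF number 1 (-3.53, edgeR adjusted p = 0.0579), LacZ bFGF number 2 (-3.40, 0.0759), LacZ SS number 1 (-3.11, 0.0789) or LacZ SS number 2 (-2.95, 0.108), and over all alternatives the adjusted p ran from 0.000171 to that value. In iCre cells it was -2.19 ± 0.74 and did not pass (edgeR adjusted p = 0.118; DESeq2 adjusted p = 0.0321), although it was lower in 4 of 4 numbers. Over the alternatives its adjusted p in iCre cells ran from 0.0321 to 0.323. Under IL-1b Sfrp2 was at 7.94 to 52.6 CPM in iCre and 5.03 to 36.9 CPM in LacZ cells and did not pass. Sfrp2 overlaps the antisense gene Gm26771, Wnt5a overlaps Gm2670 and Axin2 overlaps Gm11670, and without a stated strand setting their reads cannot be told apart.

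Frzb, another Frizzled-related protein, was higher with bFGF and IL-1b within every number. In iCre bFGF cells it had 556, 476, 600.3 and 298 CPM, in iCre IL-1b cells 527, 349, 543 and 166 CPM, and in iCre SS cells 283, 160.1, 402 and 159 CPM. In LacZ bFGF cells it had 624, 564, 628 and 586 CPM, in LacZ IL-1b cells 572, 455, 763 and 377 CPM, and in LacZ SS cells 295, 228, 537 and 233 CPM. Only LacZ bFGF lay wholly above its SS group among these 4 comparisons. With bFGF the log2 fold change was 0.94 ± 0.36 in iCre cells (edgeR adjusted p = 0.173) and 0.89 ± 0.36 in LacZ cells (edgeR adjusted p = 0.195). With the replicate block these were 0.99 ± 0.22 (edgeR adjusted p = 0.005) and 1.00 ± 0.22 (edgeR adjusted p = 0.00416). With IL-1b it was 0.66 ± 0.36 in iCre cells (edgeR adjusted p = 0.232; 0.0263 with the block) and 0.75 ± 0.36 in LacZ cells (edgeR adjusted p = 0.158; 0.008 with the block). Over all alternatives the adjusted p of these 4 ran up to 0.453, 0.496, 0.496 and 0.398. Without LacZ SS number 3, the highest of the SS libraries, both LacZ values passed, at 1.25 with bFGF (edgeR adjusted p = 0.0494) and 1.10 with IL-1b (edgeR adjusted p = 0.0401). TGFb left Frzb at 116 to 332 CPM in iCre and 286 to 400 CPM in LacZ cells, overlapping SS.

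Sfrp1, the most abundant of the 10, differed between numbers more than between groups. It ranged from 133 to 1293 CPM, and the number accounted for 70.5% of its variance on the log2 scale while the 8 groups accounted for 6.91%. Its mean level was 840 CPM in number 1, 1051 CPM in number 2, 583 CPM in number 3 and 381 CPM in number 4 (8 libraries each). No stimulus passed the test for Sfrp1 in either vector, by edgeR with or without the block or by DESeq2.

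Dkk3, a Dickkopf family member that acts less clearly on Wnt than its relatives, also followed the number, which held 65.0% of its variance. In iCre TGFb cells it had 77.7, 199, 83.5 and 472 CPM, against 131, 487, 140.4 and 666 CPM in iCre SS cells. In LacZ TGFb cells it had 101, 135, 106 and 352 CPM, against 171, 242, 235 and 529 CPM in LacZ SS cells. The groups overlapped, and Dkk3 was lower with TGFb in 4 of 4 numbers of both vectors. As a log2 fold change this was -0.78 ± 0.62 in iCre (edgeR adjusted p = 0.34) and -0.76 ± 0.62 in LacZ cells (edgeR adjusted p = 0.328). With the block it was -0.83 ± 0.25 in iCre (edgeR adjusted p = 0.00872) and -0.84 ± 0.25 in LacZ cells (edgeR adjusted p = 0.00658). Under IL-1b it was also lower in 4 of 4 numbers, and with the block the log2 fold change was -0.79 ± 0.25 in iCre (edgeR adjusted p = 0.0213; 0.346 without it) and -0.66 ± 0.25 in LacZ cells (edgeR adjusted p = 0.0495; 0.463 without it). Over the alternatives the adjusted p ran up to 0.781 and 0.744 under TGFb and to 0.731 and 0.821 under IL-1b, iCre before LacZ.

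Dkk2, which binds Lrp co-receptors, spread widely within the SS groups. In iCre SS cells it had 6.07, 19.2, 4.84 and 155 CPM, and in LacZ SS cells 4.12, 5.99, 9.68 and 57.6 CPM. Number 4 was highest in both, and its mean level was 71.6 CPM over 8 libraries against 12.9 to 19.1 CPM in the other numbers. With bFGF it had 20.7, 56.8, 23.5 and 152 CPM in iCre cells and 22.6, 32.7, 18.1 and 79.2 CPM in LacZ cells, higher than SS in 3 of 4 numbers in iCre and 4 of 4 in LacZ cells. Neither passed (edgeR adjusted p = 0.883 in iCre and 0.69 in LacZ cells). Without number 4 and with the block they passed, at 1.76 ± 0.56 in iCre (edgeR adjusted p = 0.0298) and 1.90 ± 0.59 in LacZ cells (edgeR adjusted p = 0.0331), while the highest adjusted p among the alternatives was 1 and 0.901. Under TGFb, Dkk2 in iCre cells had 20.1, 11.9, 32.3 and 67.2 CPM, higher than SS in numbers 1 and 3 and lower in numbers 2 and 4, and it did not pass (edgeR adjusted p = 0.717). Dkk2 in LacZ TGFb cells had 22.5, 12.3, 39.7 and 16.6 CPM, higher than SS in numbers 1 to 3 and lower in number 4. Without number 4 the log2 fold change there was 1.93 ± 0.63 (edgeR adjusted p = 0.0155), against 0.23 ± 0.97 with it (edgeR adjusted p = 0.862; 0.00791 to 1 over the alternatives). Under IL-1b it was at 3.47 to 34.1 CPM in iCre and 2.63 to 10.7 CPM in LacZ cells, lower than SS in 4 of 4 numbers of each, and did not pass.

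Wif1, a secreted Wnt inhibitor, stayed near the lower limit of counting in all groups. It had 0.0955 to 0.356 CPM in iCre TGFb cells, against 0.0838 to 1.01 CPM in iCre SS cells, and 0.153 to 0.337 CPM in LacZ TGFb cells, against 0.251 to 1.07 CPM in LacZ SS cells. The groups overlapped and no comparison passed.

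Axin2, a scaffold of the complex that degrades beta-catenin and a direct target of the canonical branch, fell under IL-1b and TGFb. In iCre IL-1b cells it had 1.69, 1.71, 1.05 and 2.76 CPM and in iCre TGFb cells 2.29, 1.64, 2.95 and 0.892 CPM, against 3.64, 4.37, 4.96 and 4.05 CPM in iCre SS cells. In LacZ IL-1b cells it had 1.27, 1.06, 0.563 and 3.05 CPM and in LacZ TGFb cells 1.98, 1.28, 4.04 and 1.05 CPM, against 4.25, 4.68, 4.74 and 4.27 CPM in LacZ SS cells. None of these 4 stimulated groups overlapped its SS group. The library nearest to SS was number 4 under IL-1b and number 3 under TGFb in both vectors.

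The log2 fold change of Axin2 with IL-1b was -1.24 ± 0.41 in iCre (edgeR adjusted p = 0.0379) and -1.59 ± 0.41 in LacZ cells (edgeR adjusted p = 0.00696). Without LacZ IL-1b number 4 the second was -2.22 (edgeR adjusted p = 0.000391; 3.71e-05 to 0.0316 over the alternatives). The call in iCre cells was lost without any 1 of 7 libraries, iCre IL-1b numbers 1, 2 and 3 and iCre SS numbers 1 to 4, with values from -1.30 to -1.05 and edgeR adjusted p from 0.0527 to 0.126, and without the filter on low counts (-1.23, 0.0596). With TGFb it was -1.13 ± 0.41 in iCre (edgeR adjusted p = 0.0293) and -1.10 ± 0.41 in LacZ cells (edgeR adjusted p = 0.0289). The iCre call was lost without iCre SS number 3 (-1.08, edgeR adjusted p = 0.0539), iCre TGFb number 2 (-1.06, 0.0749) or iCre TGFb number 4 (-0.89, 0.0916). The LacZ call was lost without LacZ SS number 3 (-1.07, edgeR adjusted p = 0.0504) or LacZ TGFb numbers 1 (-1.07, 0.0596), 2 (-0.92, 0.0959) or 4 (-0.87, 0.0989). With bFGF, Axin2 was at 2.34 to 3.93 CPM in iCre and 3.14 to 3.89 CPM in LacZ cells and did not pass, although no LacZ bFGF library overlapped LacZ SS.

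Daam2, a formin that binds Dishevelled, had the lowest fold changes of the 10 genes under TGFb and IL-1b, and 86.6% of its variance lay between groups. In iCre TGFb cells it had 0.296, 0.267, 0.748 and 3.31 CPM and in iCre IL-1b cells 0.430, 0.456, 0.625 and 1.18 CPM, against 15.9, 10.3, 11.7 and 5.45 CPM in iCre SS cells. In LacZ TGFb cells it had 0.712, 0.492, 0.337 and 1.39 CPM and in LacZ IL-1b cells 0.672, 0.737, 0.668 and 1.21 CPM, against 23.2, 17.5, 18.1 and 9.12 CPM in LacZ SS cells. All stimulated libraries in these 4 comparisons were below all SS libraries, and number 4 was the highest of each stimulated group and the lowest of each SS group. The lowest of these libraries held 6 counts of the gene and the SS libraries 195 to 534 counts.

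The log2 fold change of Daam2 with TGFb was -3.20 ± 0.61 in iCre (edgeR adjusted p = 0.00018) and -4.52 ± 0.66 in LacZ cells (edgeR adjusted p = 3.86e-06). With IL-1b it was -3.99 ± 0.64 in iCre (edgeR adjusted p = 7.36e-05) and -4.36 ± 0.65 in LacZ cells (edgeR adjusted p = 2.25e-05). Without the number 4 libraries the TGFb values were -4.80 in iCre and -5.24 in LacZ cells (edgeR adjusted p = 1.19e-09 and 3.49e-10) and the IL-1b value in iCre cells was -4.61 (edgeR adjusted p = 1.96e-09), and without iCre TGFb number 4 alone the iCre TGFb value was -4.59 (edgeR adjusted p = 1.31e-06). With bFGF, Daam2 had 7.97, 4.4, 5.02 and 2.57 CPM in iCre and 10.2, 10.8, 9.05 and 3.04 CPM in LacZ cells, lower than SS in 4 of 4 numbers of both. This did not pass, at -1.12 ± 0.56 in iCre (edgeR adjusted p = 0.32) and -1.04 ± 0.56 in LacZ cells (edgeR adjusted p = 0.361). Without number 4 it passed, at -1.12 ± 0.26 in iCre (edgeR adjusted p = 0.00736) and -0.96 ± 0.26 in LacZ cells (edgeR adjusted p = 0.0229), with a highest adjusted p among the alternatives of 0.566 and 0.606.

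Medians of summed markers of several cell types also differed between SS and the stimuli that lowered Daam2 and Axin2, some with overlapping ranges. Under bFGF the medians were below SS too, as given below. Summed mural markers (6 of 6 tested, such as Rgs5 and Notch3) had medians of 238 CPM in iCre TGFb (199 to 1093), 160.1 CPM in iCre IL-1b (141 to 533) and 592 CPM in iCre SS cells (152 to 617). In LacZ cells the medians were 229 CPM with TGFb (172 to 444), 168 CPM with IL-1b (129 to 264) and 537 CPM in SS (189 to 663). Summed cardiomyocyte markers (3 of 6 tested) had medians of 9.04 CPM in iCre TGFb (8.04 to 10.1), 4.44 CPM in iCre IL-1b (4.29 to 5.49) and 32.9 CPM in iCre SS cells (22.3 to 91.7), and of 18.5, 5.81 and 73.6 CPM in LacZ TGFb (9.51 to 36.6), IL-1b (4.12 to 7.37) and SS cells (44.7 to 128). Endothelial markers (5 of 6 tested) had medians of 7.93, 10.9 and 18.7 CPM in iCre TGFb (6.48 to 8.47), IL-1b (6.45 to 13.6) and SS cells (16.7 to 23.1), and of 10.3, 12.9 and 31.1 CPM in LacZ TGFb (5.94 to 10.8), IL-1b (10.7 to 14.8) and SS cells (17.1 to 34.6). Mesothelial markers (5 of 6 tested) had medians of 5.65, 5.47 and 11.5 CPM in iCre TGFb (4.53 to 11.1), IL-1b (3.93 to 6.19) and SS cells (7.77 to 13.8), and of 7.83, 5.98 and 11.7 CPM in LacZ TGFb (5.65 to 11.1), IL-1b (4.63 to 7.60) and SS cells (10.95 to 16.5). Leukocyte markers (10 of 10 tested, such as Ptprc and Cd68) had medians of 137, 267.5 and 192 CPM in iCre TGFb (35.5 to 469), IL-1b (107 to 874) and SS cells (61.3 to 637), and of 130.3, 269 and 239 CPM in LacZ TGFb (39.4 to 344), IL-1b (108 to 619) and SS cells (70.2 to 497). Fibroblast markers had medians of 34070, 25630 and 21220 CPM in iCre TGFb, IL-1b and SS cells, and of 33270, 27340 and 23450 CPM in LacZ cells. In that sum Col1a1 alone averaged 19310 CPM in iCre TGFb and 8342 CPM in iCre SS cells (19720 and 9935 CPM in LacZ cells). Pdgfra, of the same list, went the other way under TGFb. It averaged 240 ± 192 CPM in iCre TGFb and 730 ± 378 CPM in iCre SS cells (SD, n = 4 each). In LacZ cells it averaged 147 ± 47 CPM with TGFb and 619 ± 141 CPM in SS. Schwann markers (2 of 4 tested) lay between 3.12 and 14.1 CPM throughout. With bFGF the cardiomyocyte medians were 22.3 CPM in iCre and 35.5 CPM in LacZ cells. In the same order the endothelial medians were 10.99 and 16.4 CPM and the mesothelial medians 5.61 and 6.6 CPM. Mural medians were 453 and 425 CPM, leukocyte medians 170 and 197 CPM, and fibroblast medians 19230 and 21160 CPM. Each of these bFGF medians was below the SS median of its vector. No marker of these lists was at 0 in all 32 libraries. Their part in these results was not tested.

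iCre against LacZ changed 0 of the 10 genes in TGFb, IL-1b, bFGF or SS, by edgeR with or without the replicate block and by DESeq2, and 0 were under an unadjusted p of 0.05 in edgeR. In each of these conditions edgeR also called 0 genes, 0% of all tested, so Pkm, the floxed gene, was not called either. With the block 0.0298% of genes were called under TGFb, 0.00597% under bFGF and 0% in the others. The 0 of 10 therefore does not show that the vector left these genes unchanged. Of the 10 genes, 0 had groups that did not overlap, where 1.71% of genes did under TGFb, 2.1% under IL-1b, 2.14% under bFGF and 1.46% in SS. Over the average of the conditions 0 of the 10 passed, where 0.107% of genes did (0.0179% higher and 0.0895% lower; 2.83% with the block), and 1 (Frzb) was under an unadjusted p of 0.05.

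Frzb was lower in iCre than in LacZ cells in 16 of 16 pairs, a pair being the libraries with 1 condition and 1 number. The log2 ratios ran from -1.30 to -0.06, with means of -0.18, -0.40, -0.30 and -1.0 in numbers 1 to 4. The average log2 fold change was -0.40 ± 0.18 (edgeR adjusted p = 0.658). It passed with the replicate block, at -0.47 ± 0.11 (edgeR adjusted p = 0.017), and with the pairs as blocks, at -0.47 ± 0.09 (edgeR adjusted p = 0.0087). It did not pass with the counts of the 4 conditions summed (-0.45 ± 0.14, edgeR adjusted p = 0.373), in DESeq2 (adjusted p = 0.55), or with the block and without number 4 (-0.30 ± 0.10, edgeR adjusted p = 0.132), and the adjusted p ran from 0.0087 to 0.869 over all alternatives. The pairs share 4 numbers, so they are not 16 independent comparisons. Medians of summed cardiomyocyte markers, a sum that was mainly Tnnt2 in SS, were also lower in iCre than in LacZ cells, at 9.04 against 18.5 CPM under TGFb, 4.44 against 5.81 CPM under IL-1b, 22.3 against 35.5 CPM under bFGF and 32.9 against 73.6 CPM in SS. Those of endothelial markers were 7.93 against 10.3 CPM, 10.9 against 12.9 CPM, 10.99 against 16.4 CPM and 18.7 against 31.1 CPM in the same conditions, and the part of either in the Frzb values was not tested. Daam2 was lower in iCre cells in 14 of 16 pairs, except in TGFb numbers 3 and 4, and Sfrp1 in 13 of 16, with a mean log2 ratio of -1.14 in number 4 and -0.17 to 0.04 in the other numbers. Neither passed in the average (edgeR adjusted p = 0.918 and 0.929). The responses to TGFb, IL-1b and bFGF were compared between vectors by interaction terms, and 0 of the 10 genes passed in any of the 3, with 0 under an unadjusted p of 0.05 in edgeR, 0 in DESeq2 and 0% of all genes called.

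**Figure D3:**
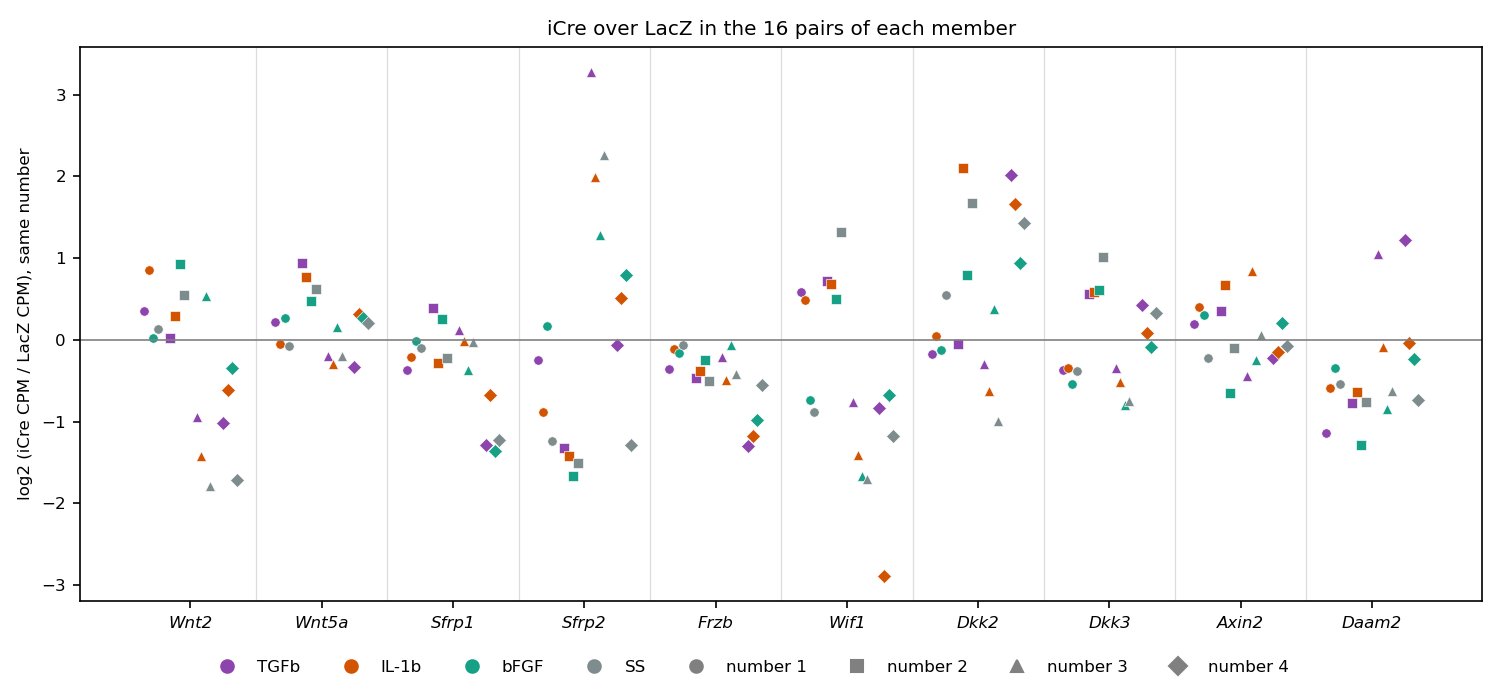
Log2 ratio of CPM in iCre over LacZ cells for each of the 16 pairs, by gene, with the condition as the colour and the replicate number as the marker. All 16 Frzb values are below 0, while the values of the other genes lie on both sides of 0.

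The number 4 libraries stood apart for several of the genes. Wnt5a averaged 95.2 CPM in number 4 against 29.9 to 51.2 CPM in the other numbers, Dkk2 71.6 CPM against 12.9 to 19.1 CPM, and Dkk3 469 CPM against 138 to 288 CPM. Frzb averaged 278 CPM in number 4 against 364 to 524 CPM in the others, and Sfrp1 381 CPM against 583 to 1051 CPM. Averaged over all conditions, Axin2 differed little between numbers, at 2.60 to 3.18 CPM, and the number held 0.968% of its variance. Within single stimuli it did differ by number, in opposite directions. Number 4 was the highest under IL-1b, at 2.76 CPM in iCre and 3.05 CPM in LacZ cells, against 1.05 and 0.563 CPM in number 3. Under TGFb number 4 was the lowest, at 0.892 and 1.05 CPM, against 2.95 and 4.04 CPM in number 3. Over the 32 libraries, after the group means were removed, log2 CPM of Wnt5a correlated with Dkk3 at r = 0.91 and with Frzb at r = -0.85, a description of libraries that share numbers. Summed fibroblast markers had a median of 15370 CPM in number 4 (10050 to 40980) against 23310 to 26160 CPM in the other numbers, and Schwann markers lay at 3.12 to 5.53 CPM in number 4 and at 6.30 to 14.1 CPM in the others. Summed leukocyte markers also followed the number, with medians of 277, 112, 540.2 and 64.9 CPM in numbers 1 to 4 and ranges of 176 to 397, 64.9 to 169, 344 to 874 and 35.5 to 108 CPM. Their part in these results was not tested.

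**Figure D4:**
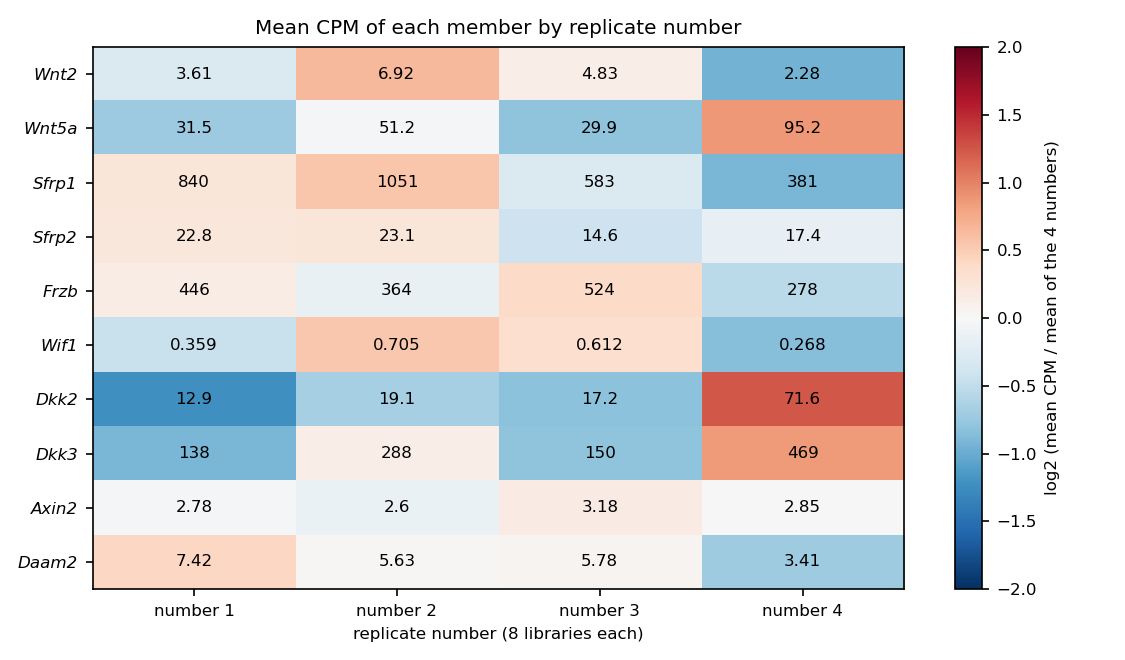
Mean CPM of each gene over the 8 libraries of a replicate number (printed in the cells), with colour giving the log2 ratio to the mean of the 4 numbers. Number 4 is highest for Wnt5a, Dkk2 and Dkk3 and lowest for Wnt2, Sfrp1, Frzb, Wif1 and Daam2.

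Of 101 other genes of the pathway listed by role, 81 were tested, here without the block. Under TGFb 16 were higher and 19 lower in iCre cells, where 20.2% and 18.1% of all genes were, and 17 higher and 23 lower in LacZ cells, where 23.4% and 22.9% were. Under IL-1b 5 were higher and 21 lower in iCre cells, where 8.88% and 6.84% of all genes were, and 4 higher and 22 lower in LacZ cells, where 11.1% and 8.13% were. With bFGF 1 was higher and 2 lower in iCre cells, where 1.44% and 0.752% of all genes were, and 1 higher and 4 lower in LacZ cells, where 1.64% and 0.919% were. iCre against LacZ changed 0 of the 81 in each condition, where 0% of all genes passed, and 0 on average, where 0.107% did. The median log2 fold change of the 81 was -0.03 in iCre and -0.08 in LacZ cells under TGFb, -0.29 and -0.27 under IL-1b, and -0.14 and -0.15 under bFGF, each beside the medians of all genes given above.

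Among 9 other Wnt ligands tested, TGFb raised 4 and lowered 2 in iCre cells (20.2% and 18.1% of all genes) and raised 4 and lowered 3 in LacZ cells (23.4% and 22.9%). Among those raised, Wnt9a averaged 27.2 ± 4.3 CPM in iCre TGFb and 8.69 ± 1.15 CPM in iCre SS cells, a log2 fold change of 1.65 ± 0.17 (edgeR adjusted p = 5.04e-08), and 33.9 ± 11.9 CPM in LacZ TGFb and 8.49 ± 0.99 CPM in LacZ SS cells, a log2 fold change of 1.998 ± 0.171 (edgeR adjusted p = 1.47e-09; SD, n = 4 each). Wnt10b rose by 2.34 ± 0.57 in iCre and 3.76 ± 0.61 in LacZ cells on the log2 scale (edgeR adjusted p = 0.00198 and 1.39e-05), and Wnt11 by 2.70 ± 0.63 and 2.53 ± 0.62 (edgeR adjusted p = 0.00128 and 0.00159). In SS, Wnt10b averaged only 0.541 ± 0.354 CPM in iCre and 0.405 ± 0.106 CPM in LacZ cells. The iCre TGFb and SS libraries overlapped for Wnt11 and Wnt1. The fourth raised was Wnt1, which averaged 2.64 ± 2.11 CPM in iCre TGFb and 3.97 ± 4.05 CPM in LacZ TGFb cells, against 0.0286 ± 0.0357 CPM in iCre SS cells and 0 in LacZ SS cells. Wls, which carries Wnt ligands to the cell surface, averaged 676 ± 49 CPM in iCre TGFb and 422 ± 78 CPM in iCre SS cells, and rose (log2 fold change 0.68 ± 0.14, edgeR adjusted p = 0.000259; 0.61 ± 0.14 and 0.000586 in LacZ cells). Under IL-1b, 1 of the 9 was higher and 2 were lower in iCre cells (8.88% and 6.84% of all genes). In LacZ cells 0 were higher and 2 lower (11.1% and 8.13%). Wnt9a was lower in both vectors, at -0.69 ± 0.17 in iCre and -0.59 ± 0.17 in LacZ cells (edgeR adjusted p = 0.00521 and 0.0127). It was also lower with bFGF in iCre cells, at -0.72 ± 0.17 (edgeR adjusted p = 0.025), where 0.752% of all genes were lower.

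Among 16 receptors, IL-1b lowered 6 in each vector, where 6.84% of all genes were lower in iCre and 8.13% in LacZ cells, and raised 0, where 8.88% and 11.1% were higher. Fzd8, a Frizzled receptor, averaged 36.9 ± 6.6 CPM in iCre IL-1b and 96.5 ± 40.6 CPM in iCre SS cells (log2 fold change -1.39 ± 0.33, edgeR adjusted p = 0.00431), and 37.7 ± 9.3 CPM in LacZ IL-1b and 121 ± 38 CPM in LacZ SS cells (-1.69 ± 0.33, edgeR adjusted p = 0.000588). Fzd5 fell by 1.10 ± 0.26 in iCre and 1.39 ± 0.26 in LacZ cells on the log2 scale (edgeR adjusted p = 0.00386 and 0.000337), Fzd2 by 0.90 ± 0.21 and 1.13 ± 0.21 (0.00334 and 0.000309), and the co-receptor Lrp6 by 0.87 ± 0.17 and 0.67 ± 0.17 (0.000846 and 0.00689). TGFb lowered 6 receptors in iCre and 7 in LacZ cells, where 18.1% and 22.9% of all genes were lower, and raised 1 in each, where 20.2% and 23.4% were higher. Fzd4 fell by 1.72 ± 0.40 in iCre and 2.06 ± 0.40 in LacZ cells (edgeR adjusted p = 0.00127 and 0.000167) and Fzd1 by 1.06 ± 0.27 and 1.37 ± 0.27 (0.00284 and 0.000194). The iCre groups of Fzd4 overlapped. Fzd5 was lower under TGFb as well, with log2 fold changes of -0.90 ± 0.26 in iCre and -0.98 ± 0.26 in LacZ cells (edgeR adjusted p = 0.00683 and 0.00289).

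Feedback and target genes other than Axin2 went both ways. Under TGFb, 5 of 11 rose and 3 fell in iCre cells, where 20.2% and 18.1% of all genes did, and 4 rose and 3 fell in LacZ cells, where 23.4% and 22.9% did. Under IL-1b, 1 rose and 1 fell in iCre cells (8.88% and 6.84%), and 1 rose and 2 fell in LacZ cells (11.1% and 8.13%). Ccn4 averaged 472 ± 180 CPM in iCre TGFb and 26.5 ± 9.4 CPM in iCre SS cells (log2 fold change 4.16 ± 0.40, edgeR adjusted p = 2.31e-08), and 489 ± 79 CPM in LacZ TGFb and 21.3 ± 7.4 CPM in LacZ SS cells (4.52 ± 0.41, edgeR adjusted p = 3.88e-09). Lef1, a nuclear partner of beta-catenin that canonical signalling also induces, rose by 2.42 ± 0.60 in iCre and 3.40 ± 0.64 in LacZ cells (edgeR adjusted p = 0.00208 and 0.000101). Lef1 averaged only 3.128 ± 2.582 CPM in iCre TGFb and 0.5753 ± 0.2995 CPM in iCre SS cells, and these libraries overlapped. In LacZ cells it averaged 3.009 ± 1.928 CPM with TGFb and 0.2812 ± 0.1432 CPM in SS, without overlap. Apcdd1, an inhibitor of the pathway, fell by 1.88 ± 0.36 in iCre and 1.82 ± 0.36 in LacZ cells on the log2 scale (edgeR adjusted p = 0.000169 and 0.00016). Under IL-1b, Nkd1, a feedback inhibitor, fell by 1.63 ± 0.42 in iCre and 1.92 ± 0.42 in LacZ cells (edgeR adjusted p = 0.00797 and 0.00174). Its iCre groups overlapped. Myc rose under IL-1b by 0.90 ± 0.27 in iCre and 1.09 ± 0.27 in LacZ cells (edgeR adjusted p = 0.02 and 0.00452). It also rose under TGFb, by 1.425 ± 0.269 in iCre and 1.817 ± 0.273 in LacZ cells (edgeR adjusted p = 0.0001525 and 5.71e-06). Its iCre TGFb and SS libraries overlapped.

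Daam1, the close relative of Daam2, fell under TGFb by a smaller amount. It averaged 87.5 ± 27.6 CPM in iCre TGFb and 152 ± 24 CPM in iCre SS cells (log2 fold change -0.79 ± 0.18, edgeR adjusted p = 0.000926), and 70.03 ± 12.2 CPM in LacZ TGFb and 162 ± 31 CPM in LacZ SS cells (-1.21 ± 0.18, edgeR adjusted p = 4.75e-06). Under bFGF it fell in LacZ cells, to 97.3 ± 2.2 CPM, by 0.74 ± 0.18 on the log2 scale (edgeR adjusted p = 0.0259).

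The genes whose log2 CPM followed a member most closely over the 32 libraries are a description of libraries that share groups and numbers. For Daam2 they were Pdlim2 (r = 0.957), Tmpo (0.947) and Cacnb4 (0.927), and for Wnt5a Mllt1 (0.925), Tada2a (0.9175) and Lrig3 (0.908). Dkk3 was nearest to Mfap2 (0.919), Dkk2 to Midn (0.907), Sfrp1 to Tmem45a (0.900), Wnt2 to Kifc3 (0.898), Frzb to Msi2 (0.894), Axin2 to Lrp4 (0.865), Sfrp2 to Fads6 (0.839) and Wif1 to Gprc5b (0.769).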

How the data were processed

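The deposited table holds raw counts per gene for 32 libraries, and 0 of its columns lacked a sample. The submitters' processing notes name FastQC 0.10.1 and HTSeq 0.10.0 and the builds mm10 and GRCm38; the aligner is not given in the sources used here, nor are the strand setting and annotation. Per the labels, RNA was extracted with a Qiagen RNeasy Micro kit and libraries were made with NEBNext Ultra II. Gene IDs were matched to GENCODE M21 symbols on GRCm38 (52133 of 55414), which also gave exon lengths for RPKM. CPM is the count per TMM-scaled library size, computed here from the deposited counts. Groups were taken from the titles.

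Counts were tested with edgeR 4.0.16 (R 4.3.3) using TMM scaling, filterByExpr with its defaults on the groups, and robust quasi-likelihood fits with 1 mean per group in 1 model of all 32 libraries. The 14 contrasts were each stimulus against SS per vector, iCre against LacZ per condition and on average, and the 3 interactions. Tests were two-sided, adjusted by Benjamini-Hochberg over 16760 genes, with a threshold of 0.05. Members and lists were chosen with earlier results of these data known. Named were the 10 members and, of the other pathway genes, up to 4 called genes per list and comparison with the smallest p, of which some are left out for length.

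No label says what a replicate number marks. Deviations from group means correlated between same-numbered libraries at 0.153 to 0.857 over 40 pairs of libraries, each above 0.1, so the numbers pair the libraries, and 31 of 32 libraries correlated best with their own number. Between libraries of 1 group, chi-square divided by degrees of freedom was at least 9.88 in 48 pairs, so none was a repeat of another. Alternatives were a block for the number, a block per pair, DESeq2 1.42.0, its size factors in edgeR, total counts as the only scaling, no filter, each library left out, number 4 left out, and counts summed over conditions; number 4 left out with the block was added after seeing the data. Log2 ratios of pairs used a pseudocount of 0.05 CPM. The fits were also run on simulated counts, whose number effects had the same spread for every number, and the outcome is not reported here. Number 4 stood apart in these data, so the simulation does not show how the fits behave on them. Of the other pathway genes, counts by role are given for ligands, receptors and feedback genes, the other lists are not reported here by role, and all are given without the block. Promoter sequences are RefSeq's. Figures were drawn with matplotlib 3.10.9.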

Additional observations from a re-analysis of the deposited data

Results flagged for a closer look

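In 8 of the 80 groups of 4 libraries (10 genes by 8 groups), 1 library lay further from the others than Dixon's limit at 95% allows. For independent and normally distributed values chance alone gives this in about 1 group in 20. The limit was applied to CPM without a log scale and the groups share numbers, so that rate need not hold here. Number 4 was that library in 7 of them. Dkk2 was at 155.3 CPM in number 4 of iCre SS cells (4.845 to 19.18 CPM in the others) and at 57.59 CPM in number 4 of LacZ SS cells (4.124 to 9.681 CPM). In LacZ TGFb cells number 4 had 196 CPM of Wnt5a (46.75 to 55.27 CPM in the others), 352.2 CPM of Dkk3 (100.6 to 135.5 CPM) and 286 CPM of Frzb (385.5 to 399.9 CPM). Daam2 was at 3.312 CPM in number 4 of iCre TGFb cells (0.2666 to 0.7476 CPM) and at 1.214 CPM in number 4 of LacZ IL-1b cells (0.6682 to 0.7373 CPM). Wnt2 was at 2.911 CPM in number 2 of iCre SS cells (0.5029 to 0.7687 CPM).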

How the results depend on the processing

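Of 13 changes of single genes that passed the test, all kept their direction, and 488 of their 507 alternatives also passed. For each change, 32 of its 39 alternatives left out 1 library, most often from a group outside the comparison. The tally therefore says little about how firm a single call is. Sfrp2 with bFGF in LacZ cells and Axin2 under IL-1b in iCre cells and under TGFb in both vectors were the ones lost. The libraries whose omission ended these calls are given with each gene above. With the replicate block the count of members changed was 2 for bFGF and 4 for IL-1b in each vector and 1 for the average of iCre against LacZ (also 1 with the pair block), and the block is given beside each single gene whose call it changed. Without number 4 it was 3 for bFGF in iCre and 2 in LacZ cells, and with the block as well 5 and 5, and 7 for TGFb in LacZ cells. DESeq2 called 2 for bFGF in iCre cells, and without the filter on low counts IL-1b changed 1 in iCre cells. Leaving out each library gave 0 to 1 for bFGF in iCre cells (1 without iCre bFGF number 4), 0 to 2 for bFGF in LacZ cells and 1 to 2 for IL-1b in iCre cells. Values near 0 turned their sign: Dkk2 under TGFb in LacZ cells was -0.0232 with total counts alone and -0.18 to 1.80 with 1 library left out, and Dkk2 with bFGF in iCre cells -0.46 to 2.66. The average of iCre against LacZ turned for Sfrp2 (-0.000397 with DESeq2 size factors, -0.0873 without number 4, -0.0139 with the pair block, -0.141 with summed counts, -0.00327 in DESeq2, -0.0614 without number 4 with the block, -0.20 to 0.12 with 1 library left out), Dkk3 (-0.0253 with the replicate block, -0.0318 with the pair block, -0.0505 with summed counts, -0.109 without number 4 with the block, -0.0586 to 0.29 with 1 library left out) and Axin2 (-0.0348 with summed counts, -0.0714 to 0.16 with 1 library left out). The cause was not tested. Over all genes, calls for bFGF were 368 in iCre and 429 in LacZ cells, and 1916 and 2048 with the block, 2621 and 1638 without number 4, 4192 and 2945 without it and with the block, 843 and 838 in DESeq2, 190 and 212 without the filter, and 40 to 1176 and 73 to 936 with 1 library left out. For IL-1b they were 2634 and 3216, and 4868 and 5418 with the block, 4280 and 4874 without number 4, and 5479 and 5970 without it and with the block. For the average they were 18, and 475 with the block, 982 with the pair block, 114 without number 4, 547 without it and with the block, 85 in DESeq2, 9 with summed counts, and 7 to 25 with 1 library left out. With scaling by total counts alone the median of all genes under TGFb was -0.27 in iCre and -0.26 in LacZ cells, and the calls split into 1918 higher and 4630 lower in iCre and 2553 and 5078 in LacZ cells, against 3378 and 3039, and 3925 and 3834. Under IL-1b they split into 1106 and 1251 in iCre and 1375 and 1625 in LacZ cells, against 1488 and 1146, and 1853 and 1363. Wif1, at 2 to 37 counts a library, is limited by depth.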
